A study of Rattus norvegicus with 32 samples.

Results

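Dendritic cell genes were followed in the intestinal mucosa of Zucker rats. The 10 genes were taken by name as genes that mark, build or activate dendritic cells: *Itgax*, *Itgae*, *Xcr1*, *Batf3*, *Flt3*, *Zbtb46*, *Irf8*, *Cd40*, *Cd80* and *Cd86*. Of these, 9 had a probe set, several short probes summarised to a single signal, that carries their symbol alone, among 17245 genes of the array with such a probe set, and each was read by 1 probe set. *Itgae* was not analysed here.

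Dendritic cells take up antigen, carry it to lymph nodes and present it to T cells. In the intestine they lie under the epithelium and in lymphoid follicles, where they take part both in tolerance to food and bacteria and in defence. The conventional dendritic cells arise from bone marrow precursors that depend on the growth factor receptor encoded by *Flt3*, and most knowledge of their subsets comes from the mouse. One subset, specialised in passing antigen to CD8+ T cells, carries the chemokine receptor encoded by *Xcr1* and depends on the transcription factors encoded by *Batf3* and *Irf8*.

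The samples were mucosal RNA of 32 male rats, each hybridised to an Affymetrix Rat Gene 1.1 ST array of its own. Zucker-Lepr fa/fa (ZO) rats carry the leptin receptor mutation fa on both chromosomes and become obese, and Zucker lean Lepr +/fa (ZL) rats carry it on one, so that every rat of the series carries at least a single copy. The groups were 4 ZL rats (C1 to C4) and 4 ZO rats (Z1 to Z4) taken as a reference before any treatment (baseline), 4 ZL rats (C11, C13, C15 and C16) and 4 ZO rats (Z11, Z13, Z15 and Z16) after 30 days of a placebo of milk powder, sucrose and vitamin C given by mouth, and 16 ZO rats that received a probiotic for the same 30 days. The labels of these 16 rats name no bacterial strain, although more than a single strain was used, so they formed 1 group. Every rat carries the same age in the labels, although baseline and treated rats were taken 30 days apart, so that age was not used.

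The values are log2 RMA signals, a scale on which a step of 1 is a 2-fold change. The medians of the arrays lay between 4.79 and 4.97 and the lowest correlation between any pair of arrays was 0.979. The epithelial genes *Vil1* and *Epcam* lay between 12.03 and 12.39 and between 12.14 and 12.32 over the 32 arrays. The array of C13, a ZL placebo rat, stood apart in *Fabp6*, a bile acid binding protein of the ileal epithelium, with 8.71 against 12.99 to 13.41 on the other 31 arrays, and the main results that involve ZL placebo rats are therefore also given without C13. In a sample of whole mucosa, fewer dendritic cells and less RNA of a gene per cell cannot be told apart. The table holds no call of detection, and the means of *Zbtb46* (4.09) and *Cd40* (4.24) over all arrays were below 4.89, the median of the means of all probe sets.

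The 250 bases before the start of the 3 genes that varied most alike between rats are shown because the regulators named above bind DNA through short motifs. They were taken from RefSeq (rat build GRCr8), whose table held a window for 9 of the 10 genes (not *Cd40*), and capitals mark matches to the motifs searched on both strands. The windows are *Itgax* at chr1:192149799-192150048 (plus strand), *Xcr1* at chr8:132364657-132364906 (minus strand) and *Flt3* at chr12:12659785-12660034 (plus strand). The start that the table uses lies inside the annotated span of the gene for *Itgax* and *Xcr1*.
Itgax: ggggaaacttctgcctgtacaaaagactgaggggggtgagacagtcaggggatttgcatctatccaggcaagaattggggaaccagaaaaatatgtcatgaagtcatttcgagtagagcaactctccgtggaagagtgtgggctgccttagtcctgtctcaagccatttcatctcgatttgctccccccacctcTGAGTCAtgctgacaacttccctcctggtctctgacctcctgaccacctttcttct
Xcr1: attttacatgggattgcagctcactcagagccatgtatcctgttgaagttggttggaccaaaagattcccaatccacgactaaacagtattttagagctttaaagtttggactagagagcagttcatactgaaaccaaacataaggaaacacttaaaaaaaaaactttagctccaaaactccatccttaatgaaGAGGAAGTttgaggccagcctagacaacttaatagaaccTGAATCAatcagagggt
Flt3: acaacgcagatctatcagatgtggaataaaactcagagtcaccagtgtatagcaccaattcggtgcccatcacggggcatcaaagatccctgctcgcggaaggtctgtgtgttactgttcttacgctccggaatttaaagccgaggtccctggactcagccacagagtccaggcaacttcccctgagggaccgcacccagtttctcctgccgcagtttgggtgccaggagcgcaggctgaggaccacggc

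The AP-1 motif TGANTCA, to which BATF3 can bind with a JUN protein, was found in the windows of *Itgax*, 56 bases before the start, and of *Xcr1*, 17 bases before the start. It occurred in 6.34% of all 33469 windows in the table. The motif GAGGAAGT of PU.1, a transcription factor of myeloid cells, was found in the *Xcr1* window, 56 bases before the start, and in 2.04% of all windows. No other of the 9 genes with a window, which include *Itgae* and not *Cd40*, held it. The core of the interferon-stimulated response element, TTTCNNTTT, which interferon regulatory factors recognise, was found in a window of *Cd80* and in 10.3% of all windows. The NF-kB motifs GGGACTTTC and GGGAATTTC were in no window of the 9 genes with a window and in 0.272% and 0.239% of all windows. *Cd40* was not searched. The *Flt3* window held none of the 5 motifs. A match describes letters in a window and no binding was measured.

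Among the surface receptors, *Itgax* and *Flt3* were lower in ZO rats given a probiotic than in ZL rats given placebo, 1.99-fold and 1.72-fold. These were the only 2 of the 9 genes that passed the test in any of the 7 comparisons made, and both calls were lost without C13. The test was limma, with the Benjamini-Hochberg adjustment made over 29214 probe sets and a threshold of 0.05. In that comparison 4.66% of all probe sets passed. Its 2 groups differ in both genotype and treatment, which it cannot tell apart. Between ZO probiotic and ZO placebo rats *Itgax* and *Flt3* differed by log2 values of -0.08 and -0.10, neither past the threshold.

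*Itgax* encodes CD11c, an integrin chain long used to mark dendritic cells and also carried by intestinal macrophages. In ZL rats at baseline it measured 5.36 (C1), 5.76 (C2), 5.91 (C3) and 5.07 (C4), and in ZL rats on placebo 5.54 (C11), 6.94 (C13), 6.06 (C15) and 6.37 (C16). In ZO rats at baseline it measured 4.61 (Z1), 5.84 (Z2), 4.75 (Z3) and 5.48 (Z4), and on placebo 5.12 (Z11), 5.44 (Z13), 5.02 (Z15) and 5.68 (Z16). The 16 ZO rats on a probiotic ran from 4.58 (Z46) over a median of 5.36 to 5.56 (Z35 and Z56). Thus C13, C16 and C15 held the 3 highest values of all rats, while C11 lay within the range of the ZO rats and every pair of groups overlapped.

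The mean of *Itgax* was 6.23 ± 0.59 (SD, n = 4) in ZL placebo, 5.52 ± 0.38 (n = 4) in ZL baseline, 5.32 ± 0.30 (n = 4) in ZO placebo, 5.24 ± 0.31 (n = 16) in ZO probiotic and 5.17 ± 0.59 (n = 4) in ZO baseline. Of the neighbours in this order that were compared, none differed past the threshold. ZO probiotic rats were below ZL placebo rats by a log2 difference of -0.99 (SE 0.21, 95% interval -1.42 to -0.56, limma adjusted p = 0.00433). Without C13 the difference was -0.75 (adjusted p = 0.0665), and with each of the other ZL placebo rats left out it stayed past the threshold. ZO placebo rats were below ZL placebo rats by a similar amount, -0.91 (SE 0.27, interval -1.45 to -0.37), which did not pass (adjusted p = 0.0992). Without C13 it was -0.67 (adjusted p = 0.368), and without C11 -1.14 (adjusted p = 0.028). The gene next to *Itgax* in the genome, *Itgad*, encodes a closely related integrin chain, for which RefSeq lists Itgax among the older names. Whether the *Itgax* probe set also reads *Itgad* was not tested.

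*Flt3* encodes the receptor for the growth factor that maintains dendritic cells. It measured 5.67 (C1), 6.46 (C2), 6.57 (C3) and 5.75 (C4) in ZL rats at baseline, and 5.99 (C11), 6.85 (C13), 6.66 (C15) and 6.79 (C16) on placebo. In ZO rats it measured 5.10 (Z1), 6.12 (Z2), 4.93 (Z3) and 6.27 (Z4) at baseline, and 5.78 (Z11), 5.88 (Z13), 5.75 (Z15) and 6.17 (Z16) on placebo. The probiotic group ran from 5.34 (Z51) over a median of 5.90 to 6.14 (Z25). As for *Itgax*, C13, C16 and C15 were the 3 highest rats and C11 lay among the ZO rats.

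ZO probiotic rats were below ZL placebo rats in *Flt3* by a log2 difference of -0.78 (SE 0.20, interval -1.19 to -0.37, limma adjusted p = 0.019), with means of 5.79 ± 0.28 (n = 16) and 6.57 ± 0.40 (n = 4). The call was lost without C13 (-0.69, adjusted p = 0.115), without C15 (-0.75, adjusted p = 0.0621) and without C16 (-0.71, adjusted p = 0.0966). Between ZO and ZL rats on placebo the difference was -0.68 (SE 0.25, interval -1.20 to -0.16, adjusted p = 0.249) and -0.59 without C13. At baseline it was -0.50 (SE 0.25, interval -1.02 to 0.01, adjusted p = 0.444).

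*Xcr1* encodes the receptor for the chemokine XCL1. It measured 5.83 (C1), 7.25 (C2), 7.11 (C3) and 5.86 (C4) in ZL rats at baseline, and 6.59 (C11), 8.24 (C13), 7.61 (C15) and 7.80 (C16) on placebo. In ZO rats it measured 5.55 (Z1), 7.31 (Z2), 5.96 (Z3) and 6.84 (Z4) at baseline, and 6.75 (Z11), 6.85 (Z13), 6.96 (Z15) and 7.42 (Z16) on placebo. The probiotic group ran from 5.79 (Z51) over a median of 6.84 to 7.36 (Z25). Each baseline group was split, with C2 and C3 above C1 and C4 and with Z2 and Z4 above Z1 and Z3, and the same rats were the higher ones in *Itgax*, *Flt3* and *Cd80*. In the sample list Z1 and Z3 stood in the first part and Z2 and Z4 in the second, while C2 and C3 stood in different parts.

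*Xcr1* was 2.07-fold higher in ZL rats after 30 days of placebo than at baseline (log2 difference 1.05, SE 0.37, interval 0.29 to 1.80), which did not pass (limma adjusted p = 0.151), and the difference was 0.82 without C13. The difference between ZO probiotic and ZL placebo rats was -0.79 (SE 0.29, interval -1.38 to -0.19, adjusted p = 0.129), with -0.56 without C13 (adjusted p = 0.452), and it passed only without C11 (-1.11, adjusted p = 0.0315). Between ZO and ZL rats it was -0.10 (SE 0.37, interval -0.85 to 0.65) at baseline and -0.57 (SE 0.37, interval -1.32 to 0.19) on placebo, neither past the threshold (adjusted p = 0.942 and 0.612), and -0.34 on placebo without C13.

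**Figure D1:**
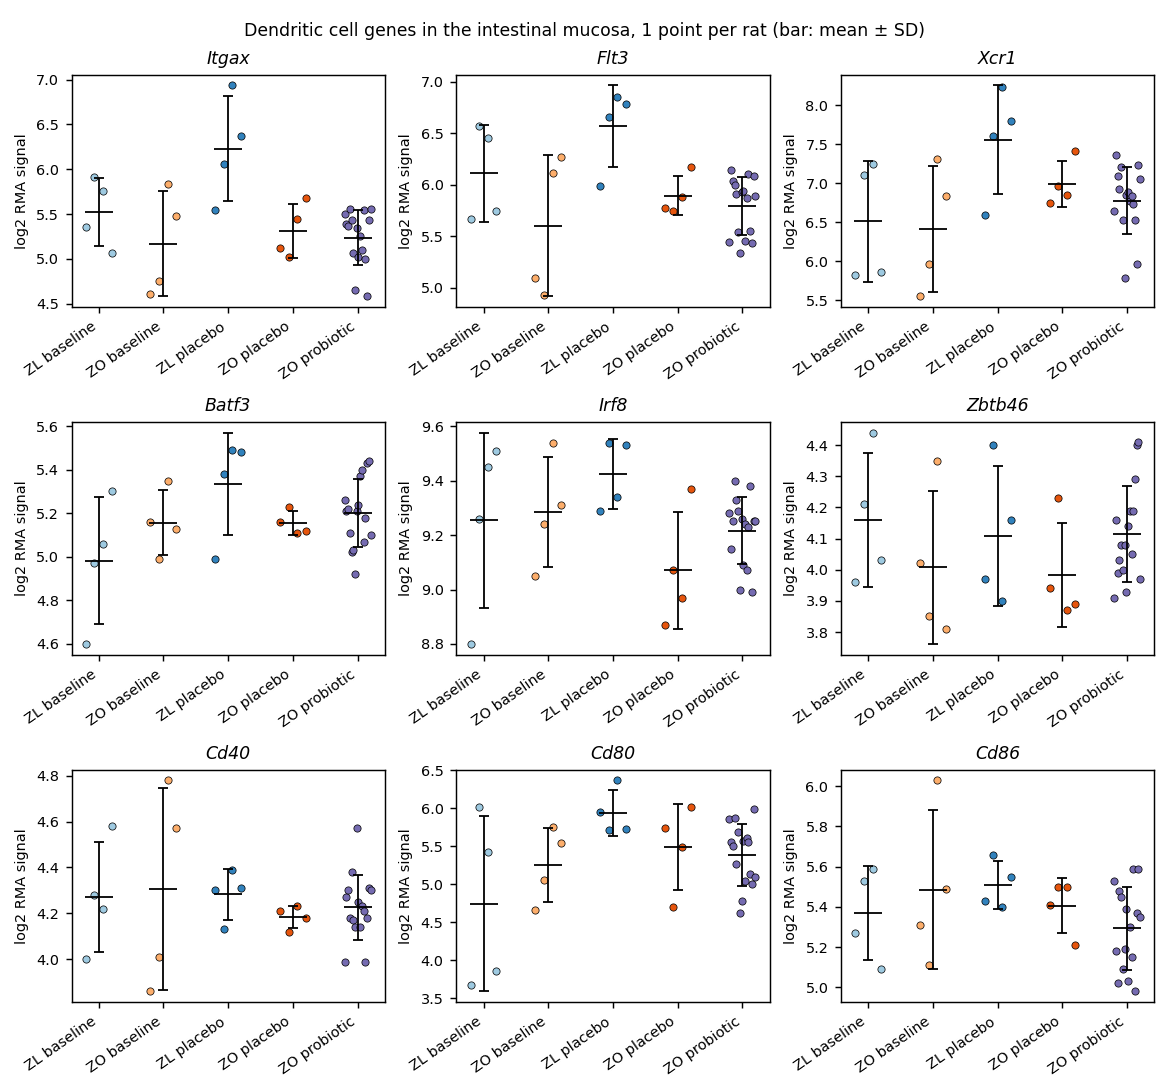
Log2 RMA signal of the 9 measured genes (vertical axes, each with its own scale) in each rat by group (horizontal axes), with 1 point per rat and bars for the group mean ± SD. For *Itgax*, *Flt3* and *Xcr1*, 3 of the 4 ZL placebo rats lie above the ZO placebo and ZO probiotic rats, the fourth lies among them, and the baseline groups are spread widely.

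None of the transcription factors passed in any comparison. *Batf3*, needed in the mouse for the subset that carries XCR1, measured 4.60 (C1), 5.06 (C2), 4.97 (C3) and 5.30 (C4) in ZL rats at baseline and 4.99 (C11), 5.49 (C13), 5.38 (C15) and 5.48 (C16) on placebo. In ZO rats it measured 5.16 (Z1), 5.35 (Z2), 4.99 (Z3) and 5.13 (Z4) at baseline, 5.16 (Z11), 5.11 (Z13), 5.23 (Z15) and 5.12 (Z16) on placebo, and 4.92 to 5.44 with a median of 5.21 on a probiotic. The ZL groups overlapped, since C11 was below C2 and C4. The difference between ZL placebo and ZL baseline was 0.35 (SE 0.12, interval 0.10 to 0.60, limma adjusted p = 0.15), and it passed only without C4 (0.46, adjusted p = 0.0349). Without C13 it was 0.30.

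*Irf8*, a factor of the same subset that B cells, macrophages and plasmacytoid dendritic cells also use, measured 8.80 (C1), 9.45 (C2), 9.26 (C3) and 9.51 (C4) in ZL rats at baseline and 9.29 (C11), 9.34 (C13), 9.54 (C15) and 9.53 (C16) on placebo. In ZO rats it measured 9.05 (Z1), 9.54 (Z2), 9.24 (Z3) and 9.31 (Z4) at baseline and 8.87 (Z11), 8.97 (Z13), 9.07 (Z15) and 9.37 (Z16) on placebo. The probiotic group ran from 8.99 (Z46) over a median of 9.25 to 9.40 (Z35). On placebo 3 of the 4 ZO rats were below every ZL rat and Z16 was not. The difference between the genotypes on placebo was -0.36 (SE 0.12, interval -0.61 to -0.10), and its adjusted p was 0.201 by limma. Without C13 it was -0.39.

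*Zbtb46*, a factor of conventional dendritic cells in mouse and human, ran from 3.81 (Z4) to 4.44 (C2) over all 32 rats, and its group means lay between 3.98 ± 0.17 (ZO placebo, n = 4) and 4.16 ± 0.22 (ZL baseline, n = 4). The groups overlapped throughout. No comparison of *Zbtb46* passed, with log2 differences between -0.15 and 0.13.

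*Cd40*, *Cd80* and *Cd86* encode surface proteins through which activated dendritic cells, B cells and macrophages stimulate T cells. *Cd40*, which the study used as its marker of dendritic cells, measured 4.0 (C1), 4.22 (C2), 4.28 (C3) and 4.58 (C4) in ZL rats at baseline and 4.30 (C11), 4.39 (C13), 4.13 (C15) and 4.31 (C16) on placebo. In ZO rats it measured 3.86 (Z1), 4.78 (Z2), 4.01 (Z3) and 4.57 (Z4) at baseline and 4.21 (Z11), 4.23 (Z13), 4.12 (Z15) and 4.18 (Z16) on placebo. The probiotic group ran from 3.99 (Z21 and Z43) over a median of 4.22 to 4.57 (Z55), so that both the lowest and the highest *Cd40* value of all rats were found in ZO rats at baseline.

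In ZO rats *Cd40* differed between placebo and baseline by -0.12 (SE 0.14, interval -0.40 to 0.16, limma adjusted p = 0.802), which as a ratio is an interval from 0.756 to 1.12. Between probiotic and placebo the difference was 0.04 (SE 0.11, interval -0.18 to 0.26, adjusted p = 0.998). Between ZO and ZL rats it was 0.03 (SE 0.14, interval -0.25 to 0.32) at baseline and -0.10 (SE 0.14, interval -0.38 to 0.19) on placebo, with adjusted p = 0.951 and 0.866.

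*Cd80* was spread widely. It measured 3.67 (C1), 5.43 (C2), 6.01 (C3) and 3.86 (C4) in ZL rats at baseline and 5.95 (C11), 6.37 (C13), 5.71 (C15) and 5.73 (C16) on placebo. In ZO rats it measured 4.66 (Z1), 5.75 (Z2), 5.06 (Z3) and 5.54 (Z4) at baseline, 5.74 (Z11), 5.49 (Z13), 4.70 (Z15) and 6.01 (Z16) on placebo, and 4.62 to 5.99 with a median of 5.52 on a probiotic. C1 and C4 were the lowest of all rats, and C3 kept the ZL groups from separating. After 30 days of placebo *Cd80* was 2.29-fold higher in ZL rats (log2 difference 1.20, SE 0.37, interval 0.43 to 1.96), which did not pass (limma adjusted p = 0.103) except without C3 (1.62, adjusted p = 0.0416). Without C13 it was 1.05.

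*Cd86* ran from 4.98 (Z43) to 6.03 (Z2), and its group means lay between 5.29 ± 0.21 (ZO probiotic, n = 16) and 5.51 ± 0.12 (ZL placebo, n = 4). Every pair of groups overlapped. No comparison of *Cd86* passed, and the difference between ZO probiotic and ZL placebo rats was -0.22 (SE 0.12, limma adjusted p = 0.363).

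In the comparison of ZL placebo with ZL baseline, 8 of the 9 genes were positive, with a median log2 difference of 0.35 (0.30 without C13) against -0.00 over all probe sets. None passed by limma, where 0.911% of all probe sets did. At an unadjusted p under 0.05, *Itgax* (0.70, adjusted p = 0.174), *Xcr1*, *Batf3* and *Cd80* were higher, 4 of 9 genes against 9.71% of all probe sets. Of other dendritic cell genes, 16 of 17 conventional (median 0.24), 10 of 13 development (0.30) and 6 of 7 plasmacytoid genes (0.28) were positive. Mature and migratory genes were at 7 of 14 (0.01) and those of CD40 signalling at 2 of 7 (-0.15). Without C13 the medians of these lists were 0.14, 0.23, 0.31, -0.01 and -0.05 in the same order. Most markers of other cells were positive in the same comparison: 7 of 8 for plasma cells (median 0.31), 7 of 8 for B cells (0.27), 9 of 13 for macrophages (0.27), 11 of 14 for T cells and intraepithelial lymphocytes (0.25), 7 of 9 for mast cells (0.22) and 8 of 10 for leukocytes (0.20). Without C13 the medians of these markers were 0.39, 0.22, 0.18, 0.14, 0.22 and 0.17 in the same order. The part of these other cells in the values of the 9 genes was not tested. The same change in ZO rats was positive for 4 genes and negative for 5, with a median of -0.00 against -0.02 over all probe sets. None of the 9 passed there, where 1.36% of all probe sets did, and 0 had an unadjusted p under 0.05.

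Whether the 30-day change itself differed between the genotypes was tested as the difference of the 2 changes, and none of the 9 genes passed (0.00342% of all probe sets did). At an unadjusted p under 0.05 only *Irf8* was called (-0.39, SE 0.18, limma adjusted p = 0.56, and -0.42 without C13). The median of the 9 genes was -0.35 against -0.01 over all probe sets, and the interval of *Cd80* ran from -2.04 to 0.12.

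Between ZO and ZL rats on placebo all 9 genes were negative, with a median of -0.36 (-0.31 without C13) against -0.00 over all probe sets, of which 51.2% were negative. None passed by limma, where 1.04% of all probe sets did. At an unadjusted p under 0.05, *Itgax*, *Flt3* and *Irf8* were lower, 3 of 9 genes against 5.83% of all probe sets. Most markers of other cells were negative as well: 10 of 10 for leukocytes (median -0.45), 8 of 8 for B cells (-0.38), 11 of 13 for macrophages (-0.24), 8 of 9 for mast cells (-0.23) and 11 of 14 for T cells and intraepithelial lymphocytes (-0.18), while plasma cell markers were at 5 of 8 (-0.05). Without C13 the medians of these markers were -0.39, -0.24, -0.23, -0.30, -0.15 and -0.08 in the same order. The part of these other cells was not tested here either. Lists of other dendritic cell genes were mixed. Negative were 16 of 17 other conventional genes (median -0.19), 7 of 13 development genes (-0.03) and 9 of 14 mature and migratory genes (-0.04). Of 7 plasmacytoid genes 4 were negative (-0.09), and of 7 genes of CD40 signalling 0 were (0.15). Without C13 the medians of these lists were -0.19, -0.09, 0.01, -0.08 and 0.11 in the same order. At baseline the 9 genes split into 5 positive and 4 negative, 0 of the 9 and 0% of all probe sets passed, and 0 of the 9 had an unadjusted p under 0.05. For none of the 9 genes did the ranges of 2 compared groups lie apart, which they did, by comparison and direction, for 0.024% to 5.91% of all probe sets.

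The comparison of ZO probiotic with ZL placebo shares its control rats with that of ZO placebo, so the values are given side by side and not as separate evidence. In it 8 of the 9 genes were negative, with a median of -0.22 (-0.25 without C13) against 0.01 over all probe sets. At an unadjusted p under 0.05, *Itgax*, *Flt3*, *Xcr1* and *Irf8* (-0.21, limma adjusted p = 0.254) were lower, 4 of 9 genes against 8.62% of all probe sets.

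Between ZO rats on a probiotic and ZO rats on placebo the log2 differences of the 9 genes lay between -0.22 (*Xcr1*, SE 0.29, interval -0.81 to 0.38) and 0.15 (*Irf8*, SE 0.10, interval -0.05 to 0.35). None passed by limma, 0 of the 9 had an unadjusted p under 0.05, and 0.00342% of all probe sets passed. The interval ran from -0.51 to 0.35 for *Itgax* and from -0.51 to 0.31 for *Flt3*, as ratios from 0.704 to 1.28 and from 0.702 to 1.24.

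**Figure D2:**
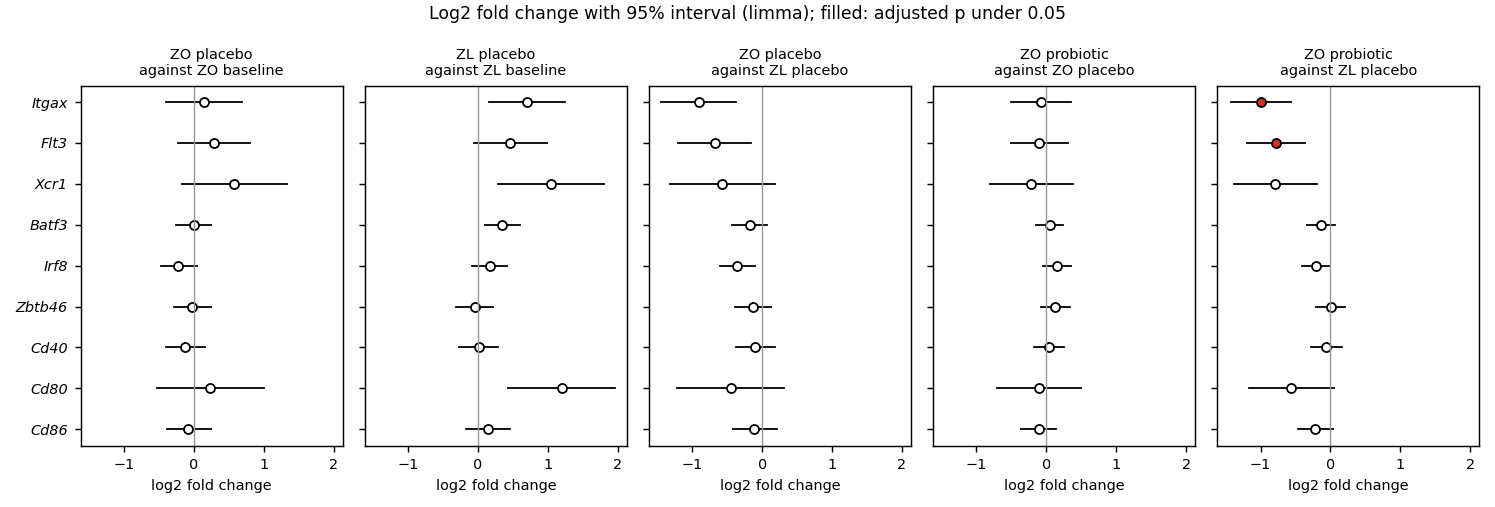
Log2 fold change (horizontal axes) of the 9 genes (rows) in 5 comparisons, with the limma estimate as a point and its 95% interval as a line, filled where the adjusted p was under 0.05. The filled points are *Itgax* (-0.99) and *Flt3* (-0.78) in the comparison of ZO probiotic with ZL placebo, and all 9 points are negative for ZO placebo against ZL placebo.

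Some of the genes varied together from rat to rat inside the groups. With the group means removed, Pearson's r and Spearman's rho were computed for the 36 pairs of the 9 genes over 32 rats, with p by permutation within groups and Benjamini-Hochberg adjustment over the 36 pairs. The 16 probiotic rats counted as 1 group here and in the relations to lists below. Differences between their treatments therefore remain in r and rho, and the permutations take no account of them. The place of a rat in the sample list was not removed or kept in the permutations either. The surface receptors were closest: *Xcr1* and *Flt3* gave r = 0.89 and rho = 0.91, *Itgax* and *Xcr1* r = 0.88 and rho = 0.83, and *Itgax* and *Flt3* r = 0.80 and rho = 0.80. For these 3 pairs the permutation p of r was 1.0e-05, the smallest that the permutations can give (adjusted p = 1.2e-04, and 2.4e-04 for rho). Without the 2 rats farthest from the median of the first gene r was 0.88, 0.88 and 0.81, without C13 it was 0.89, 0.88 and 0.81, and among the 16 probiotic rats alone it was 0.81, 0.80 and 0.64.

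*Cd80* followed the same 3 genes, with r = 0.66 for *Xcr1* (rho = 0.64), 0.62 for *Flt3* (rho = 0.66) and 0.62 for *Itgax* (rho = 0.66), at permutation p of 6.9e-04, 0.0013 and 1.1e-04 and adjusted p of 0.005, 0.0077 and 9.9e-04. *Itgax* and *Cd86* gave r = 0.51 and rho = 0.48 (permutation p = 0.008 and 0.0097, adjusted p = 0.036 and 0.044). In all, 34 of the 36 pairs were positive with a median r of 0.39, 9 pairs passed by r, 8 by rho and 7 by both. *Batf3* and *Zbtb46* passed with none of the other genes. *Irf8* passed by r alone with *Xcr1* (0.54, rho = 0.47, permutation p = 0.0056 and 0.021, adjusted p = 0.029 and 0.068) and *Itgax* (0.47, rho = 0.46, permutation p = 0.012 and 0.018, adjusted p = 0.047 and 0.063). *Cd40* passed by rho alone with *Xcr1* (r = 0.49, rho = 0.55, permutation p = 0.045 and 0.0089, adjusted p = 0.1 and 0.044), with r = 0.41 without C13 and Z1. Its highest r, with *Flt3*, passed by neither (0.59, rho = 0.56, permutation p = 0.032 and 0.015, adjusted p = 0.096 and 0.061).

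**Figure D3:**
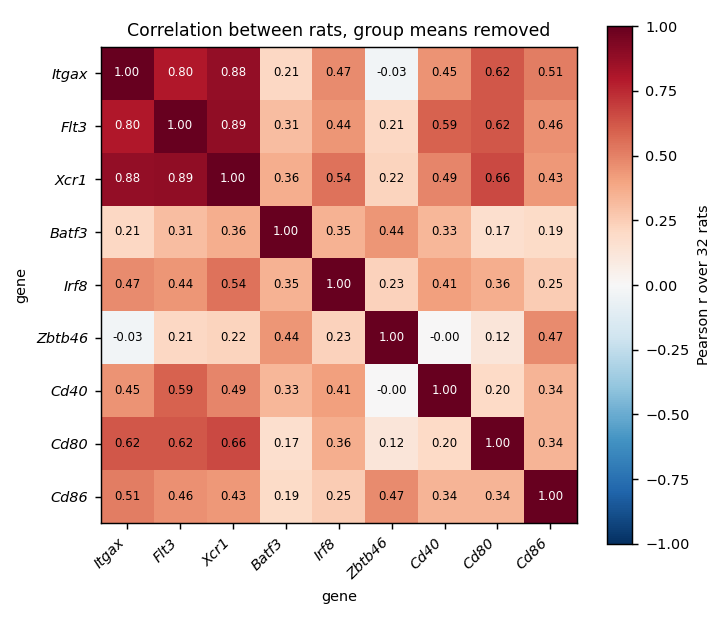
Pearson's r between each pair of the 9 genes (rows and columns) over 32 rats after removal of the group means, by colour from -1 to 1 and as a number in each square. *Itgax*, *Flt3* and *Xcr1* form a block with r from 0.80 to 0.89, and *Batf3* and *Zbtb46* are weakly related to it.

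**Figure D4:**
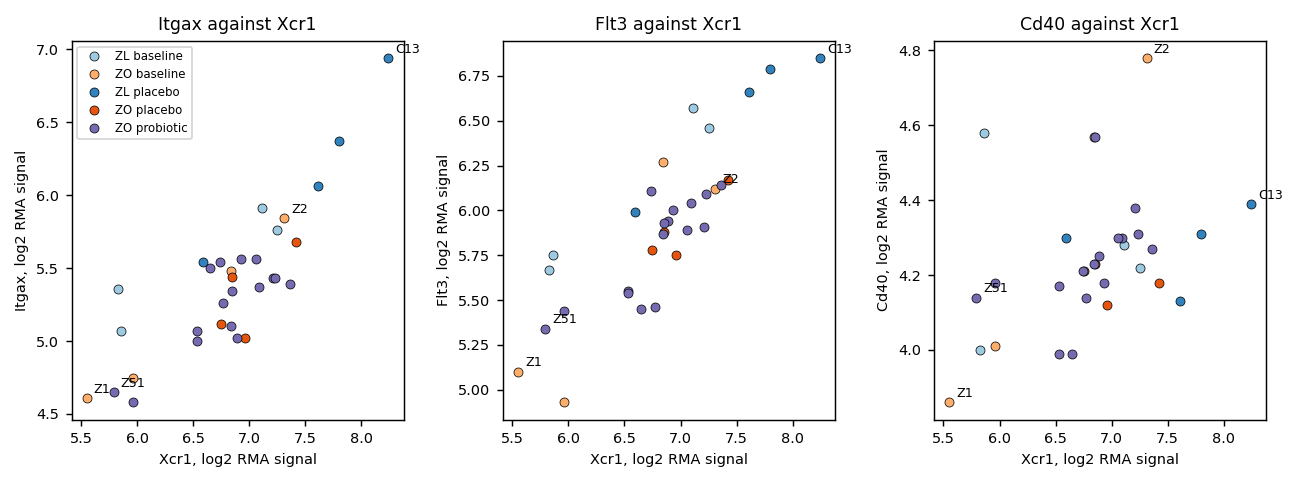
Log2 signal of *Itgax*, *Flt3* and *Cd40* (vertical axes) against that of *Xcr1* (horizontal axes), with 1 point per rat, coloured by group, and some rats named. *Itgax* and *Flt3* run along *Xcr1* from Z1 (4.61 and 5.10) to C13 (6.94 and 6.85), and the *Cd40* points follow it more loosely (r = 0.49 with group means removed, against 0.88 and 0.89).

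Over all genes of the array with a single symbol, and with the group differences kept, the signals most like *Xcr1* over the 32 arrays were those of *Slamf7*, a receptor of several leukocytes (r = 0.94), *Wdfy4*, needed for cross-presentation in the mouse (r = 0.91), and *Laptm5*, a lysosomal protein of leukocytes (r = 0.91). Those most like *Flt3* were *Nckap1l*, an actin regulator of blood cells (r = 0.92), *Itgad* (r = 0.91) and *Lacc1* (r = 0.91), and those most like *Itgax* were *Itgad* (r = 0.92), *Lpcat2* (r = 0.92) and *Mmp25* (r = 0.90). For *Cd80* they were *Arl11* (r = 0.76), *Tlr11* (r = 0.76) and *Ap1s2* (r = 0.72), for *Cd86* *Sod3* (r = 0.73), *Klf7* (r = 0.71) and *Acer3* (r = 0.69), and for *Cd40* *Cxcl9*, a chemokine induced by interferon gamma (r = 0.69), *Uap1l1* (r = 0.66) and *Podnl1* (r = 0.62). For the transcription factors they were *Jak3* (r = 0.72), *Atp10d* (r = 0.69) and *Tcirg1* (r = 0.67) for *Irf8*, *Cyfip2* (r = 0.71), *Cxcr6* (r = 0.68) and *Ube2j2* (r = 0.67) for *Batf3*, and *Nova2* (r = 0.69), *St14* (r = 0.61) and *Plod1* (r = 0.60) for *Zbtb46*. These are the highest of many correlations across the same arrays and are given as a description.

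The signal of *Xcr1* was set against the mean signal of 15 lists of other genes, within a family of 135 relations between the 9 genes and the lists, with group means removed, 32 rats and permutation p adjusted over the family. It followed the list of other conventional dendritic cell genes with r = 0.94 and rho = 0.91 (permutation p = 1.0e-05, adjusted p = 1.7e-04 and 1.9e-04). It also followed the markers of other cells of the mucosa, with r = 0.87 for macrophages (rho = 0.86), 0.85 for mast cells (rho = 0.85), 0.78 for leukocytes in general (rho = 0.83) and 0.65 for plasma cells (rho = 0.69). For these 4 lists the permutation p of r was 1.0e-05, 1.0e-05, 4.0e-05 and 9.0e-04, and the adjusted p was 1.7e-04, 1.7e-04, 3.6e-04 and 0.0045. Without the 2 rats farthest in *Xcr1*, r for these 5 lists was 0.93, 0.88, 0.87, 0.76 and 0.68. For B cells and follicles r was 0.20 and 0.16 (rho = 0.18 and 0.20, permutation p = 0.35 and 0.45, adjusted p = 0.43 and 0.54), and for epithelial markers -0.46 (rho = -0.35, permutation p = 0.047, adjusted p = 0.1). *Itgax* was negatively related to the epithelial markers, with r = -0.60 and rho = -0.51 (adjusted permutation p = 0.016 and 0.035 over 32 rats).

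*Cd40* had its highest relations with the lists of mature and migratory dendritic cells (r = 0.61, rho = 0.62, permutation p = 0.0022 and 0.0014, adjusted p = 0.01 and 0.0066) and of T cells and intraepithelial lymphocytes (r = 0.61, rho = 0.70, permutation p = 0.0035 and 4.4e-04, adjusted p = 0.014 and 0.0024), over 32 rats. Its relation to the 7 measured genes of CD40 signalling was -0.10 (rho = -0.20, permutation p = 0.55, adjusted p = 0.61).

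Other dendritic cell genes passed in the comparison in which *Itgax* and *Flt3* passed. Of all 29214 probe sets, 1360 (4.66%) passed there, and 684 without C13. Of 17 other conventional dendritic cell genes, 5 were lower in ZO probiotic than in ZL placebo rats and none higher, with a list median of -0.23 against 0.01 over all probe sets. They were *Itgam*, an integrin chain of myeloid cells (-0.89, SE 0.20, limma adjusted p = 0.00628), *Clec4a2*, a lectin of myeloid cells (-0.78, SE 0.20, adjusted p = 0.0173), *Havcr2*, an inhibitory receptor also of T cells (-0.75, SE 0.15, adjusted p = 0.00278), *Wdfy4* (-0.74, SE 0.21, adjusted p = 0.0326) and *Cd207*, the lectin langerin (-0.28, SE 0.07, adjusted p = 0.0221), whose group means all lay between 2.84 and 3.12. Without C13, 2 passed, *Havcr2* and *Dpp4*. The group means of *Dpp4* lay between 11.80 and 11.98, near those of the epithelial gene *Vil1* (12.14 to 12.33). *Cd24* of the same list lay as high, at 11.94 to 12.18, and *Xbp1* of the plasma cell list was near, at 11.67 to 11.88. Whether the signals of these genes came from the cells of their lists was not tested.

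Of 14 genes of mature and migratory dendritic cells 2 were lower, *Ccl22*, a chemokine that attracts regulatory T cells (-1.04, SE 0.22, limma adjusted p = 0.00378), and *Socs2*, an inhibitor of cytokine signalling (-0.59, SE 0.13, adjusted p = 0.00576), and both passed without C13 as well. The list median was -0.13, and -0.07 without C13. Of 7 genes of plasmacytoid dendritic cells, the producers of type I interferon, 3 were lower: *Siglech* (-0.48, SE 0.09, adjusted p = 9.1e-04), *Spib* (-0.89, SE 0.17, adjusted p = 0.00214) and *Ccr9* (-0.41, SE 0.11, adjusted p = 0.0247). Without C13, *Siglech* and *Spib* passed. *Siglech* was the only gene of these 3 lists that also passed between ZO and ZL rats on placebo (-0.53, SE 0.11, adjusted p = 0.0111), and it did so without C13 too. Its group means lay between 3.17 and 3.69, below 4.89, the median over the probe sets. *Spib* also belongs to the list of follicle markers. Whether the signals of *Siglech*, *Spib* and *Ccr9* came from plasmacytoid dendritic cells was not tested. Of all probe sets, 4.66% passed between ZO probiotic and ZL placebo rats and 1.04% between the genotypes on placebo.

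Between ZO probiotic and ZL placebo rats, where 4.66% of all probe sets passed, 1 of 13 genes of dendritic cell development and growth did. It was *Nfil3*, a transcription factor upstream of several lymphoid and dendritic lineages in the mouse, which was higher (0.94, SE 0.24, limma adjusted p = 0.0184), but not without C13. The list as a whole leaned the other way, with 8 of 13 genes negative and a median of -0.17 (-0.23 without C13). Among 10 measured ligands and partners of the 9 genes, *Itgb7*, the integrin chain that pairs with that of *Itgae*, was lower (-0.50, SE 0.14, limma adjusted p = 0.0266). Between the genotypes on placebo it was lower too (-0.67, SE 0.17) and passed narrowly, with a limma adjusted p that lies under 0.05 but rounds to it. It passed in neither comparison without C13. *Itgb2*, which pairs with CD11c, gave -0.66 between ZO probiotic and ZL placebo rats (SE 0.22, limma adjusted p = 0.0758). Of 7 genes of CD40 signalling, *Traf3*, an inhibitor of the non-canonical NF-kB pathway, was higher (0.27, SE 0.08, adjusted p = 0.0487), and not without C13.

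Of 10 MHC class II genes, whose products carry the antigen that dendritic cells, B cells and macrophages present, 3 were higher in ZO rats on placebo than at baseline: *RT1-Da* (0.96, SE 0.19, limma adjusted p = 0.00529), *Cd74* (0.41, SE 0.08, adjusted p = 0.00728) and *RT1-Db1* (0.76, SE 0.18, adjusted p = 0.0213). In ZL rats 2 rose over the same time, *Cd74* (0.42, SE 0.08, adjusted p = 0.0151) and *RT1-Da* (0.84, SE 0.19, adjusted p = 0.0272), and without C13 3 passed, the same genes and *RT1-DMb*. The list medians were 0.44 in both genotypes, and 0.52 in ZL rats without C13. Of all probe sets, 1.36% passed over that time in ZO rats and 0.911% in ZL rats. In ZO probiotic against ZL placebo rats, where 4.66% of all probe sets passed, 1 of the 10 did, *RT1-DOb* (-0.74, SE 0.20, limma adjusted p = 0.0245), and not without C13.

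Markers of other cells also passed in the comparison of ZO probiotic with ZL placebo rats. Of all 29214 probe sets, 1360 (4.66%) passed in it, and 684 without C13. Of 10 leukocyte markers 5 were lower, *Rac2*, *Coro1a*, *Cd52*, *Arhgdib* and *Laptm5*, with log2 differences from -0.77 to -0.46, and the mean of the list ran from 7.80 to 8.18 in ZL placebo rats and from 7.17 to 7.76 in ZO probiotic rats. Of 13 macrophage markers 1 was lower, *Cd68* (-0.73, SE 0.21, limma adjusted p = 0.0412), with a list mean of 6.35 to 6.91 against 5.82 to 6.80. Of 9 mast cell markers 3 were lower, *Mcpt1*, *Kit* and *Cma1*, with a list mean of 4.36 to 4.97 against 3.92 to 4.73. Of 8 B cell markers 1 was lower, *Blk* (-0.52, SE 0.13, adjusted p = 0.0141), with a list mean of 4.91 to 5.69 against 4.42 to 5.73, and of 14 T cell and intraepithelial lymphocyte markers 1, *Klrd1* (-0.39, SE 0.11, adjusted p = 0.0297). None of 8 plasma cell markers passed in that comparison. Between the genotypes on placebo, where 1.04% of all probe sets passed, *Rac2* and *Cma1* did (-0.65 and -0.38, limma adjusted p = 0.0231 and 0.0216), though not without C13. Of 9 epithelial markers 1 was higher in ZO probiotic than in ZL placebo rats, *Cdx1* (0.44, SE 0.11, limma adjusted p = 0.0187). The list mean ran from 11.64 to 11.81 in ZL placebo rats and from 11.76 to 11.86 in ZO probiotic rats. Without C13, 2 leukocyte markers (*Coro1a* and *Rac2*) and 1 mast cell marker (*Kit*) passed in that comparison. No macrophage, B cell, T cell or epithelial marker did. The part of these cells in the differences of *Itgax* and *Flt3* was not tested.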

How the data were processed

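Each deposited value is a score: a log2 RMA signal of the authors that had lost its decimal point in 934687 of 934848 cases. The design had assumed log2 values. The point was put back after digit 2 where a value began with 10 to 13, otherwise after digit 1, which gave 1.58 to 13.52. For the arrays (GeneTitan) the authors name AGCC 3.1, EE 1.1 with RMA, and Partek 6.10. Their averaging to genes and removal of background were not repeated. Gene symbols came from the platform annotation, in which 18644 probe sets have a single symbol.

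One model of 5 group means was fitted over all 32 arrays by lmFit, contrasts.fit and eBayes of limma 3.58.1 in R 4.3.3, and p-values were adjusted over 29214 probe sets without a filter. Correlations used 100000 permutations within groups (Python 3.11.15, scipy 1.17.1), for 36 pairs since *Itgae* was not analysed. The fit was tested on simulated data. The number of arrays limits the precision. Each rat was 1 replicate.

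The genes, lists and motifs were chosen with earlier results of these data known. Named are all 10 genes, list genes that pass or else up to 2 with the smallest p in a comparison, and the 3 genes most correlated with each of the 9. *Dpp4*, *RT1-DMb*, *Vil1*, *Epcam* and *Fabp6* were named outside this rule. Alternatives were quantile normalization, median centring, leaving out the lowest 30% of probe sets, array weights, only the groups compared, 1 probe set per gene, the mean of a gene's probe sets, a trended variance, the place in the sample list as a block, the rat number as a block and each rat of the groups of 4 left out. The repeat of the lists without C13 was added after seeing the data.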

Additional observations from a re-analysis of the deposited data

How the results depend on the processing

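With 4 rats in a group, a call over 29214 probe sets turned on single rats. Over 63 log2 differences, 1098 alternative values were computed: 1040 kept their direction and side of the threshold, 4 lost a call, 8 gained one and 46 reversed, of which 0 were of a called difference and the largest had a size of 0.17 as reported. The cause was not tested.

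The count of the 9 genes past the threshold for ZO placebo against ZL placebo was 0, and 2 both with array weights (*Itgax* -0.81, limma adjusted p = 0.0423, and *Irf8* -0.40, adjusted p = 0.0369) and with the replicate block (*Itgax* adjusted p = 0.0469, *Irf8* adjusted p = 0.0399). The numbers shared by ZL and ZO rats mark no shared source in the labels, and deviations of same-numbered rats correlated between -0.0373 and 0.232. With single rats left out the count ran from 0 to 1 there, from 0 to 1 for ZL placebo against ZL baseline and from 0 to 3 for ZO probiotic against ZL placebo, where it was 2.

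With array weights the reversed values were 0.01 for *Batf3* and 0.00 for *Zbtb46* (ZO placebo against ZO baseline), -0.02 for *Cd40* (ZL placebo against ZL baseline), -0.00 for *Irf8* (baseline genotypes), 0.02 for *Cd80* (ZO probiotic against ZO placebo) and -0.09 for *Zbtb46* (ZO probiotic against ZL placebo). With quantile normalization they were 0.00 for *Zbtb46* (ZO placebo against ZO baseline) and -0.04 for *Irf8* (baseline genotypes), and with median centring -0.03 for *Cd40* (ZL placebo against ZL baseline).

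With single rats left out, sign changes gave these ranges. For ZO placebo against ZO baseline they were -0.04 to 0.37 for *Itgax*, -0.06 to 0.06 for *Batf3*, -0.11 to 0.09 for *Zbtb46*, -0.27 to 0.04 for *Cd40* and -0.20 to 0.10 for *Cd86*. For ZL placebo against ZL baseline they were -0.15 to 0.04 for *Zbtb46* and -0.08 to 0.11 for *Cd40*. For the difference of the 30-day changes they were -0.40 to 0.05 for *Flt3*, -0.07 to 0.14 for *Zbtb46* and -0.28 to 0.03 for *Cd40*. For the baseline genotypes they were -0.40 to 0.19 for *Xcr1*, -0.12 to 0.12 for *Irf8*, -0.13 to 0.18 for *Cd40* and -0.07 to 0.24 for *Cd86*. For ZO probiotic against ZO placebo they were -0.17 to 0.04 for *Itgax* and -0.37 to 0.07 for *Cd80*, and against ZL placebo -0.06 to 0.10 for *Zbtb46*.

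Over all probe sets, calls for ZL placebo against ZL baseline numbered 266, and 66 with quantile normalization, 85 with median centring, 73 with array weights, 0 with only the groups compared, 401 with the place in the list as a block and 32 to 1281 with single rats left out. For ZO placebo against ZO baseline they were 398, with array weights 1231 and with rats left out 172 to 356. For ZO placebo against ZL placebo they were 304, with array weights 673, with only the groups compared 118 and with rats left out 115 to 383. For ZO probiotic against ZL placebo they were 1360, and 684 (without C13) to 1498 with rats left out. At baseline they were 0, and 307 without C4. The other 2 comparisons had 1 call and 0 to 6 in any alternative.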
